A study of Rattus norvegicus with 8 samples.

Results

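The hearts of aged female rats that received estradiol long after removal of the ovaries were compared with the hearts of females that kept their ovaries. The comparison rests on 4 of the 8 arrays of the series, 2 from late estradiol hearts and 2 from sham hearts, chosen by the group that the labels give. Each array held RNA pooled from 3 hearts of Norway Brown rats aged 18 to 22 months. Sham females had the abdominal cavity opened with no tissue removed, so their ovaries were intact. Late estradiol females had both ovaries removed, and 9 weeks later received a pellet of 0.5 mg 17-beta estradiol made to release over 90 days. The other 4 arrays came from ovariectomized females without hormone and from females given estradiol early, 2 arrays each, and they serve here to estimate the spread between pools and to place the levels. The stage of the sham females' cycle, their circulating estradiol and the time from pellet to collection were not stated in any source used here. The labels number the pools 1 and 2 in every group and do not say what a shared number stands for, so each test below measures only the spread between these pools, which may be technical.

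Estradiol acts through the nuclear receptors encoded by Esr1 and Esr2, which bind DNA at estrogen response elements or join other transcription factors, and through a membrane receptor encoded by Gper1. In the heart, receptors have been described in cardiomyocytes, fibroblasts and vascular cells, and ovarian hormones are known for effects on collagen turnover, on mitochondrial substrate use and on calcium handling. The fibrillar collagens are secreted mainly by fibroblasts, are trimmed and cross-linked outside the cell, and give the wall its stiffness.

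Signal was measured as log2 of the deposited array intensity, brought to 1 distribution over all 8 arrays by quantile normalization, and differences are late estradiol minus sham on that scale. Positive differences therefore mean more signal after late replacement. The late estradiol replicate 1 array was the dimmest and stood apart in its Gapdh ratio. Its trimmed mean intensity of 28.2 was the lowest of the 8 arrays, whose others ran from 40.5 to 137.5, and its ratio of 3′ to 5′ Gapdh signal, a gauge of RNA and labelling quality, was 2.70 against 1.26 to 1.65 on the other 7. The same ratio for beta-actin, 3.01, lay within the range of the other 7, 1.71 to 3.06. Leaving it out moved the median difference of the fibrillar collagen genes from -0.34 to -0.22 and that of the fatty acid genes from -0.15 to 0.0059, and for most gene lists the median is given below in each replicate pair as well as over both. The defining heart genes were present on all 4 arrays: the 15 tested cardiomyocyte markers had mean log2 signals of 11.96 and 11.86 in the sham pools and 11.88 and 11.86 in the late estradiol pools.

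No gene passed the test between late estradiol and sham after correction over all probe sets. Of 18625 probe sets tested with limma, 0 passed a Benjamini-Hochberg adjusted p of 0.05, a share of 0%, and the smallest adjusted p was 0.188. An unadjusted limma p under 0.05 was met by 1339 probe sets, or 7.19%. Leaving the late estradiol replicate 2 array out gave 144 calls at the adjusted threshold, 143 of them lower, leaving the sham replicate 2 array out gave 1, and fitting only the 4 arrays of the comparison, with 1 residual degree of freedom, gave 118. The fit without late estradiol replicate 2 kept 1 late array, the one with the high Gapdh ratio, so its calls rest on that array. Its differences were 2.13 for Bex1, -1.04 for Des, -5.07 for Eln, -3.02 for Grk5 and -1.01 for Hadh. Leaving out either of the other 2 arrays gave 0 calls, with 431 and 489 probe sets at an unadjusted p under 0.05. With late estradiol replicate 1 left out, the differences were 1.525 for Bex1, -0.24 for Des, 0.12 for Eln, -0.70 for Grk5 and -0.092 for Hadh. Counted by gene over all arrays, with 1 probe set for each of 10451 genes, 257 lay higher at an unadjusted p under 0.05 (2.46%) and 392 lower (3.75%).

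The scaling between arrays sets the zero point of all differences. Scaling each array by its median instead of by quantiles moved the median difference of all probe sets from -0.02 to -0.23, and using no scaling moved it to -0.62, so directions below are relative to the quantile-normalized distribution.

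The precision of the arrays sets how far this absence of calls can be read. The median 95% confidence interval reached 0.81 log2 units to each side of the difference. For 7760 probe sets, or 41.7%, the whole interval lay within a 2-fold difference in either direction, and for 1887, or 10.1%, it lay within 1.5-fold. The share went with signal strength: of 4 equal groups of probe sets by brightness, the brightest had 89.9% with an interval within 2-fold and the dimmest 0%. For most probe sets of the brightest group, differences over 2-fold therefore lay outside the interval on the quantile-normalized scale. Smaller differences were not bounded in this way, and 38.8% of that group had an interval within 1.5-fold. In the dimmest group the median interval reached 1.54 log2 units to each side, so differences over 2-fold were not bounded there.

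The spread of the differences was larger for the replicate 1 pair than for the replicate 2 pair. Over all tested probe sets the SD was 0.94 in the replicate 1 pair, 0.58 in the replicate 2 pair and 0.57 for their mean, and the median difference was -0.02. In the brightest of the 4 groups of probe sets the SDs were 0.47 and 0.28. Both pairs had the same sign in 10034 probe sets, or 53.9%. Across probe sets, which are not independent of each other, the differences of the replicate 1 and replicate 2 pairs correlated with r = 0.09 over all tested and 0.19 in the brightest group. Within a group, replicate 2 minus replicate 1, also a difference of 2 arrays, had an SD of 0.79 in sham and 0.99 in late estradiol. For scale, the mean difference from sham had an SD of 0.50 for ovariectomy and 0.43 for early estradiol, with the same 2 sham arrays used in each. In the replicate 1 and 2 pairs the SDs were 0.80 and 0.64 for ovariectomy and 0.71 and 0.51 for early estradiol. Late estradiol thus had the largest SD from sham in the replicate 1 pair, and ovariectomy in the replicate 2 pair.

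**Figure D1:**
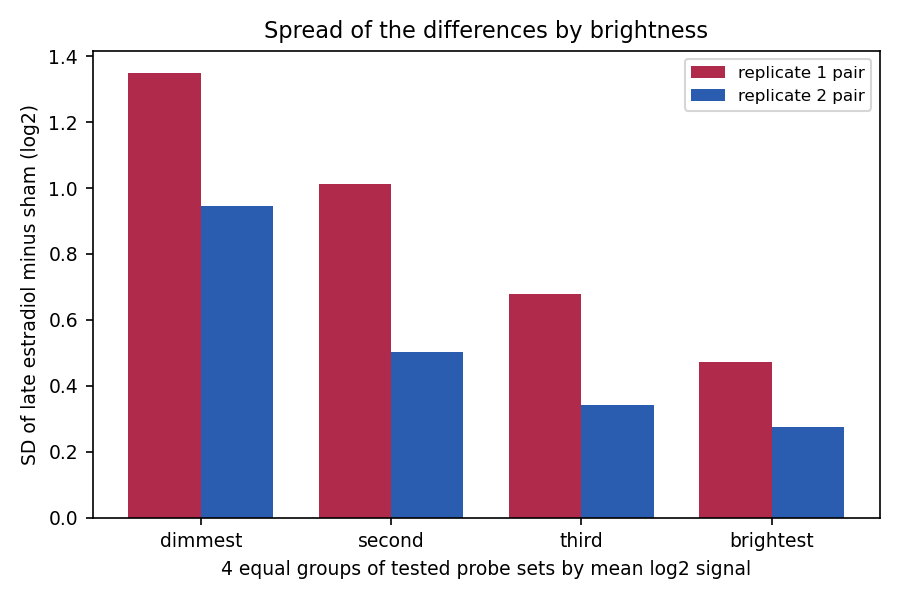
SD of the log2 difference late estradiol minus sham (vertical axis) in each of 4 equal groups of tested probe sets by mean signal (horizontal axis, dimmest to brightest). Bars show the replicate 1 pair and the replicate 2 pair; the SD is 1.35 and 0.95 in the dimmest group and 0.47 and 0.28 in the brightest.

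Single genes were chosen for description by the size and repeatability of their difference, so their values are a description of the upper end of the range. Among all 10451 genes, 1499 (14.3%) had both late estradiol arrays above both sham arrays and 1683 (16.1%) had both below. With the further demand of a 1.5-fold difference in both pairs, 150 genes (1.44%) lay higher and 166 (1.59%) lower. Of those with at least the median signal, 34 lay higher and 29 lower, and the 15 of smallest p in each direction are named here.

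Bex1, which encodes a small adaptor protein first known from brain and also described in failing heart muscle, had the largest difference of the genes chosen in this way. Its log2 signal was 7.90 and 8.05 in the sham pools and 10.07 and 9.53 in the late estradiol pools. The groups did not overlap, and the ovariectomized pools at 8.52 and 9.07 and the early estradiol pools at 9.41 and 8.89 lay between them. The difference of 1.83 ± 0.25 (SE, n = 2 arrays a group), or 3.55-fold, did not pass with a limma adjusted p of 0.188. Bulk hearts were measured, so more or fewer cells of a type and more or less RNA per cell cannot be told apart for this or any gene below.

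Iqub, an IQ motif gene known from cilia, had the second of these differences, with 5.50 and 5.28 in sham and 7.14 and 6.98 in late estradiol. The 4 values gave a difference of 1.67 ± 0.27, with 1.64 and 1.71 in the pairs and a limma adjusted p of 0.271. The ovariectomized pools at 6.21 and 6.19 and the early pools at 6.40 and 6.10 again lay between sham and late estradiol.

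Srsf2, a splicing factor of the SR family, stood at 8.75 and 8.89 in sham and at 9.60 and 9.51 in late estradiol, a difference of 0.74 ± 0.16; its 1 other probe set had the opposite sign. Snrnp70, the U1 small nuclear ribonucleoprotein that marks the 5′ splice site, stood at 7.43 and 7.51 against 8.32 and 8.42, a difference of 0.90 ± 0.21. Ccnt2, a cyclin of the elongation factor P-TEFb, and Zcchc7, a factor of nuclear RNA surveillance, differed by 1.04 ± 0.27 and 1.31 ± 0.37. All 4 had both late estradiol arrays above both sham arrays, which was the condition for being named.

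Membrane and vessel genes were also among them. Adgrf5, an adhesion receptor abundant in lung and on endothelium, was at 8.56 and 8.74 in sham and 9.52 and 9.36 in late estradiol, while the 4 arrays of the other groups lay between 8.58 and 8.89. Cav2, a caveolin of the plasma membrane, differed by 0.82 ± 0.24, and Mcf2l by 0.91 ± 0.26, though 1 of 3 and 1 of 1 of their other probe sets had the opposite sign. The remaining named genes were Idua, the lysosomal iduronidase (0.97 ± 0.26), Gstz1 of tyrosine breakdown (0.78 ± 0.23), Cda, which deaminates cytidine (1.39 ± 0.36), Sbsn, known from epidermis (1.18 ± 0.33), Zfp827, a zinc finger gene (1.13 ± 0.28), and Lrrc27 (0.70 ± 0.21). None of the 15 passed, with limma adjusted p from 0.188 to 0.687. Cda was the least even of them, with sham pools at 4.30 and 6.22.

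**Figure D2:**
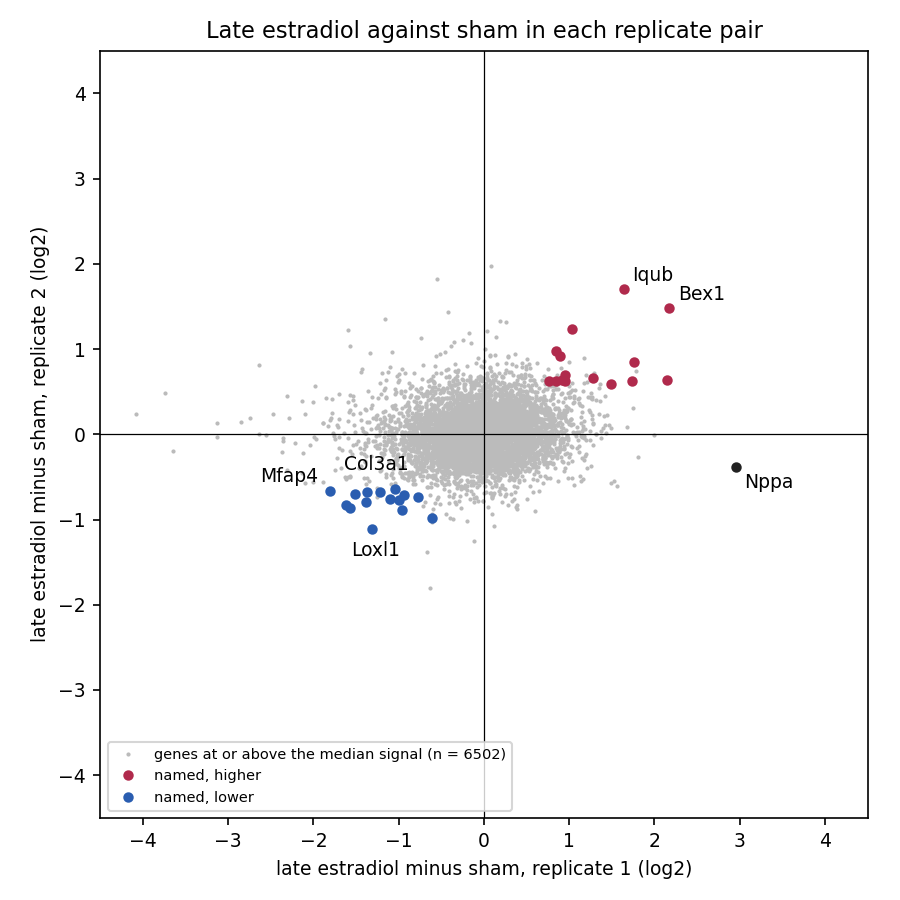
Difference late estradiol minus sham on the log2 scale in the replicate 1 pair (horizontal) and the replicate 2 pair (vertical) for the genes at or above the median signal. Red and blue points are the named genes, which were chosen for agreeing in sign; Bex1 lies at 2.17 and 1.48, and Nppa (black), at 2.96 and -0.38, shows a pair that disagrees.

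Matrix genes led in the lower direction. Col3a1, the collagen III chain, had log2 signals of 9.91 and 9.74 in sham and 8.81 and 8.99 in late estradiol. Neither late pool reached a sham pool, and the difference was -0.93 ± 0.17 with a limma adjusted p of 0.557. The ovariectomized pools stood at 10.58 and 10.64 and the early estradiol pools at 10.21 and 9.75, so the late estradiol pools were the lowest of the 8 and the ovariectomized pools the highest.

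Loxl1, which cross-links elastin and collagen, stood at 7.37 and 7.13 in sham and 6.06 and 6.02 in late estradiol, a difference of -1.21 ± 0.24. Mfap4, a microfibril protein of elastic fibres, stood at 8.96 and 8.12 against 7.16 and 7.46, a difference of -1.23 ± 0.30. Serpinf1, the secreted pigment epithelium-derived factor, stood at 8.51 and 7.92 against 6.99 and 7.22, a difference of -1.11 ± 0.24. For all 3, the late estradiol pools were also below the 4 pools of ovariectomy and early estradiol.

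Col1a2, the second collagen I chain, was less sharply apart: 8.19 and 7.55 in sham and 7.26 and 6.84 in late estradiol, a difference of -0.82 ± 0.26, with 1 of 1 other probe set of the same sign. Nrep, a short protein of fibroblast and muscle cells, differed by -0.84 ± 0.24, but its early estradiol pools at 6.05 and 6.71 were as low as the late pools at 6.17 and 7.19.

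The other lower genes had varied roles. Scn4b, an auxiliary subunit of the cardiac sodium channel, was even between pairs, with 8.74 and 8.80 in sham, 7.97 and 8.07 in late estradiol and a difference of -0.75 ± 0.18. Dnm1l, the GTPase that divides mitochondria, stood at 7.30 and 7.94 against 6.33 and 7.06. Pank1, which starts coenzyme A synthesis, stood at 6.69 and 6.91 against 5.46 and 6.24. In each of these 3 genes the sham and late estradiol arrays did not overlap.

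Abcc4, an exporter of cyclic nucleotides, differed by -1.23 ± 0.35, Ube2h, a ubiquitin-conjugating enzyme, by -0.89 ± 0.27, Tut1, the uridylyl transferase of U6 RNA, by -1.02 ± 0.34, Cep350 of the centrosome by -0.80 ± 0.24, and Fam234a by -1.21 ± 0.24. Rnf41, a ubiquitin ligase, differed by -1.09 ± 0.32, with 2 of 2 other probe sets of the opposite sign. Limma adjusted p for the 15 lower genes ran from 0.557 to 0.687.

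**Figure D3:**
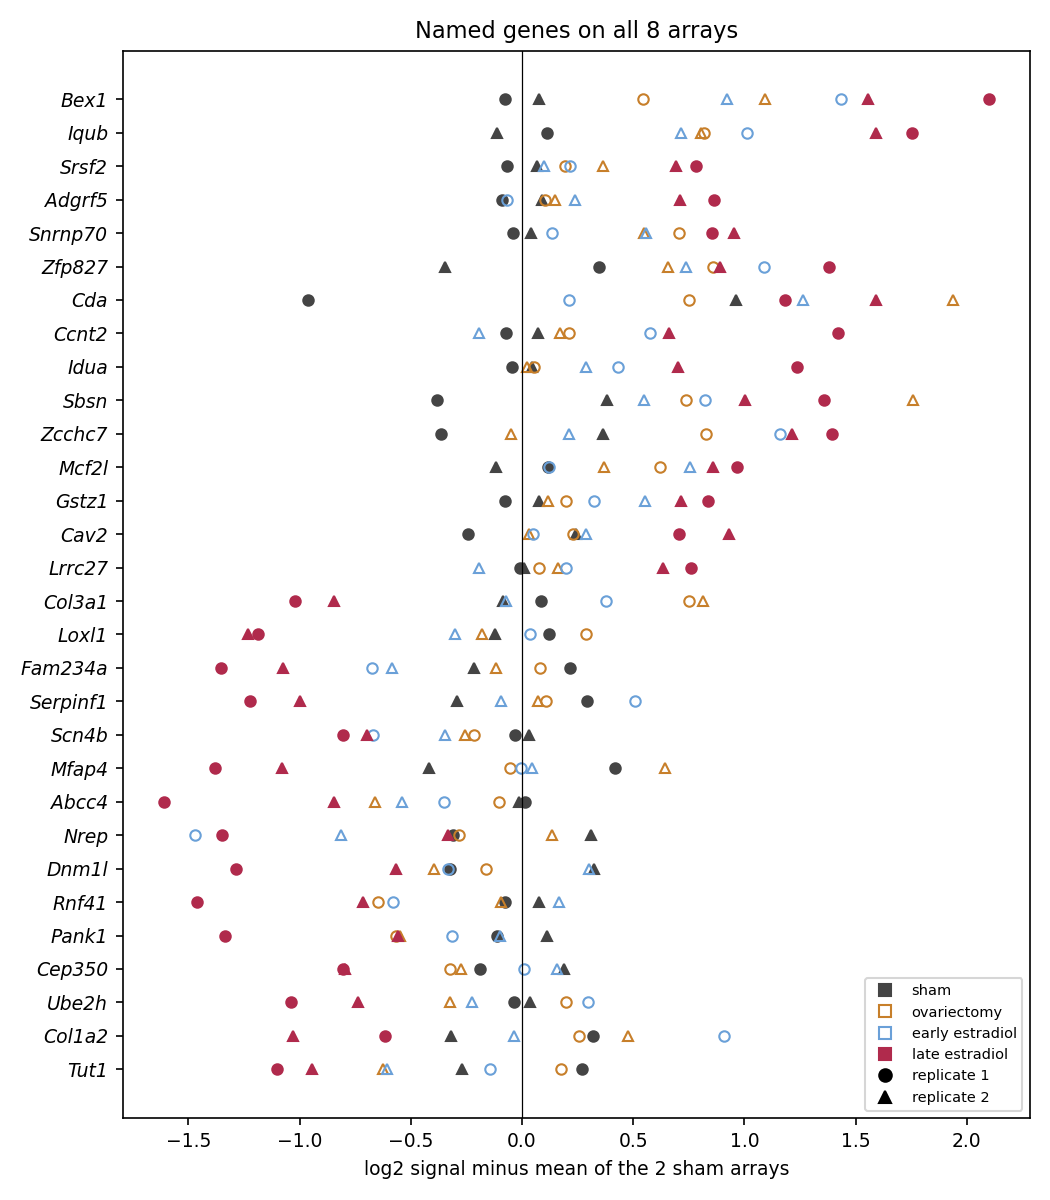
Log2 signal of the 30 named genes on all 8 arrays, minus the mean of the 2 sham arrays (horizontal axis). Filled points are sham (grey) and late estradiol (red), open points are ovariectomy (orange) and early estradiol (blue), circles and triangles are replicates 1 and 2; the named rule put all late arrays outside the sham range.

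The promoters of the named genes, from RefSeq (assembly GRCr8, 250 bases before to 50 after the gene start), were read for the letters of the estrogen response element, since the late group received estradiol. They were found for 12 of the 15 higher and 12 of the 15 lower genes, some with 2 promoters. The full element, GGTCA and TGACC with 3 bases of any kind between them, was in 9 of 33469 promoters of all genes (0.0269%) and in none of the 14 and 13 of the named genes. The core GGTCA alone, on either strand, also part of the full element, was in 40.5% of all promoters. It was in 6 of the 14 promoters (42.9%) of the higher genes and in 3 of the 13 promoters (23.1%) of the lower genes. Both promoters of Sbsn are among the 6. TATAAA on the printed strand was in 8.80% of all promoters, 7.14% of the higher and 7.69% of the lower set. The 3 promoters below belong to a collagen gene, a secreted factor that also lay lower and a splicing gene that lay higher. All 3 hold the core GGTCA, which most promoters of the named genes lack. Capitals mark GGTCA or its complement TGACC, and TATAAA. Col1a2 lies at chr4:33518307-33518606 on the plus strand, Serpinf1 at chr10:60760849-60761148 on the minus strand and Snrnp70 at chr1:105012802-105013101 on the minus strand. A match of letters is a description only.
Col1a2: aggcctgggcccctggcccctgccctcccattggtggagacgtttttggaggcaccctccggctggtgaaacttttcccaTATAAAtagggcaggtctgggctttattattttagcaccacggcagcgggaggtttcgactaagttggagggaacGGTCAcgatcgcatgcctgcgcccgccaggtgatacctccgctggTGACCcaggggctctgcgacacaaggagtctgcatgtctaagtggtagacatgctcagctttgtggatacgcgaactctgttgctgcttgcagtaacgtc
Serpinf1: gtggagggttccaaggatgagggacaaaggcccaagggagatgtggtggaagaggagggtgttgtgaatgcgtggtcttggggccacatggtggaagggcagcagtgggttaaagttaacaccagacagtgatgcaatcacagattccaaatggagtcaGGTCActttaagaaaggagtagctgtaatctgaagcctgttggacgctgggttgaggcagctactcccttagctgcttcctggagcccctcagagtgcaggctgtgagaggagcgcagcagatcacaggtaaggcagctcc
Snrnp70: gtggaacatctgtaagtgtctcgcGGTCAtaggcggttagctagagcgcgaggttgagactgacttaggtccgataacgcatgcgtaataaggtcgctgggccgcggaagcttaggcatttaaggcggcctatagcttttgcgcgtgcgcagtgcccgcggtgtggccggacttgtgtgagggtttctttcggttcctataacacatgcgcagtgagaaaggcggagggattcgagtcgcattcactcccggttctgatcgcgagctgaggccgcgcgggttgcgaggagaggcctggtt

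Taken by list, the fibrillar collagens and the proteins that process them were mostly below sham. Of 20 listed genes 17 were tested and 14 lay lower, with a median difference of -0.34 against -0.03 over all genes. In 8 of the 17 the arrays did not overlap in that direction, or 47.1%, beside 16.1% of all genes. None passed after adjustment. The median was -0.86 in the replicate 1 pair and -0.05 in the replicate 2 pair, so the size rests mostly on the pair that holds the late array of low intensity.

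Col1a1, the first collagen I chain, stood at 7.30 and 6.88 in sham and at 6.28 and 6.60 in late estradiol, while the ovariectomized pools were at 7.98 and 8.31. Serpinh1, the collagen chaperone, stood at 9.03 and 8.87 against 7.99 and 8.71, and nearly all of its difference of -0.60 ± 0.21 came from the replicate 1 pair. Pcolce, which enhances procollagen trimming, had the same shape: 6.75 and 6.05 in sham, 3.62 and 6.02 in late estradiol.

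Elastic fibre, proteoglycan and matricellular genes stood close to that. Of 23 tested, 19 lay lower, 8 of the 23 (34.8%, beside 16.1% of all genes) did so with no overlap, and the median was -0.28, with -0.42 and -0.18 in the replicate pairs. Dcn, the proteoglycan decorin that binds collagen fibrils, was at 11.20 and 11.16 in sham and 10.69 and 11.11 in late estradiol. Mfap5, a microfibril component, was at 8.15 and 8.07 against 7.10 and 7.86. Eln, the elastin gene, could not be read in the same way: its late replicate 1 value was 0.21 and the other 7 arrays lay between 4.98 and 6.09.

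Of the enzymes that cut matrix, Mmp2, a gelatinase, stood at 8.17 and 7.78 in sham and 7.28 and 7.33 in late estradiol, a difference of -0.67 ± 0.21. Its inhibitor Timp2 stood at 9.51 and 9.22 against 8.98 and 9.07. Timp3 and Adamts1, another inhibitor and another protease, had differences of 0.35 ± 0.20 and 0.47 ± 0.25. The 1 other probe set of Timp2 and both others of Timp3 had the opposite sign. The 12 tested genes of the group were divided, 5 higher and 7 lower, and their median of -0.22 became -0.01 with the mean of all probe sets of a gene. Basement membrane genes were divided as well, 7 higher and 9 lower of 16. Col18a1, a dim gene, had the largest difference of them, at 5.12 and 5.12 against 2.18 and 3.95. Col15a1, which is brighter, stood at 7.71 and 7.60 against 6.87 and 7.16. Of 18 tested TGF-beta genes, which drive matrix synthesis, 14 lay lower with a median of -0.11 (-0.14 and -0.09 in the pairs), and Tgfb3 itself stood at 6.66 and 6.85 against 5.78 and 6.40.

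The fibroblast markers stood lower beside the matrix genes. Of 15 tested, 12 lay lower and 5 did so without overlap (33.3%, beside 16.1% of all genes), with a median of -0.34 that was -0.51 and -0.07 in the pairs, and the mean level was 8.22 and 8.25 in sham and 7.63 and 8.08 in late estradiol. Of these 15 genes 3 are also in the collagen list and 4 in the elastic fibre list. The share of fibroblasts in the pooled tissue was not measured, and its part in the matrix values was not tested.

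**Figure D4:**
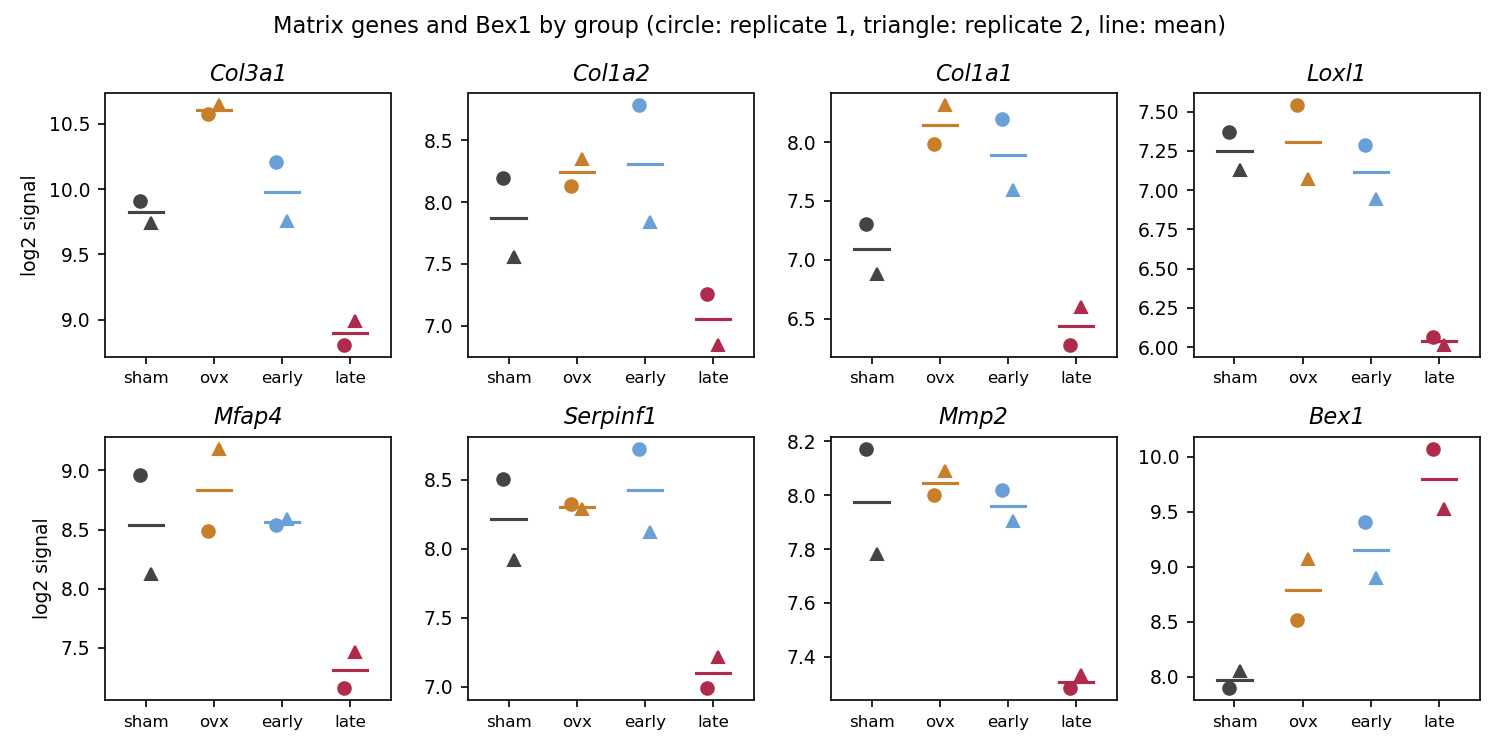
Log2 signal (vertical axis, a separate range in each panel) of 7 matrix genes and Bex1 in the 4 groups; circles are replicate 1, triangles replicate 2 and lines group means. Late estradiol pools are the lowest for each matrix gene shown, and for Col3a1 they stand at 8.81 and 8.99 against 9.91 and 9.74 in sham.

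Markers of vessel cells had medians nearer to 0. The 14 tested endothelial markers had a median of 0.14 (0.06 and 0.0014 in the pairs), with 10 higher and 4 lower. The replicate 2 pair was divided 7 to 7. Vwf, the von Willebrand factor of endothelium, stood at 8.89 and 8.52 in sham and 9.61 and 8.87 in late estradiol, with overlap. Smooth muscle and pericyte markers were divided 7 to 6 with a median of 0.03. Among them Des, the intermediate filament desmin of all muscle, stood at 11.54 and 11.52 against 10.39 and 11.40.

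Macrophage markers gave opposite medians in the replicate pairs, -0.34 and 0.24, and are not read further. Their mean levels were 5.92 and 6.42 in sham and 5.64 and 6.62 in late estradiol. The 3 tested blood cell genes lay lower, with Hbb, beta globin, at 12.49 and 12.75 in sham against 12.34 and 12.26. With median scaling Hbb was 0.15 relative to all probe sets, so its direction depends on the scaling. Alas2, the erythroid heme enzyme, stood at 7.96 and 7.97 against 7.62 and 7.18. Slc4a1, the third gene, was dim and overlapped between groups, with a difference of -0.19 ± 0.86. Of 6 tested fat cell genes 2 lay higher and 4 lower, and the replicate 2 pair was even at 3 and 3. Cidea, a lipid droplet protein, stood at 9.49 and 9.75 against 8.94 and 8.99, a difference of -0.65 ± 0.16, while its early estradiol pools at 9.12 and 9.10 also lay below sham. Pparg, the regulator of fat cell formation, differed by 0.41 ± 0.41 and Fabp4, a fatty acid carrier of fat and endothelium, by 0.24 ± 0.16.

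Genes of atrial tissue were higher in 7 of 11, with a median of 0.24 (0.50 and 0.18 in the pairs) and mean levels of 6.88 and 7.09 in sham and 7.69 and 6.92 in late estradiol. Myl4, the atrial light chain, stood at 5.74 and 5.99 against 7.50 and 6.30, and its early estradiol pools were higher still at 8.59 and 6.97. Nppa, the atrial natriuretic peptide gene, stood at 8.85 and 11.24 in sham and 11.81 and 10.85 in late estradiol, so the sham pools alone spanned more than the group difference of 1.29 ± 0.56. How much atrium each pool held was not measured, and its part in these values was not tested. Dkk3, another gene of the list, was even between pairs, at 9.04 and 8.92 against 9.54 and 9.39, a difference of 0.49 ± 0.17. Of 7 tested mesothelial markers 5 lay higher, 6 in the replicate 1 pair and 3 in the replicate 2 pair with medians of 0.96 and -0.17, and Krt19, a keratin of the heart's outer lining, lay lower at 5.07 and 3.69 against 3.07 and 1.46.

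The brightest contractile genes lay close to the sham level with quantile normalization, which gives equal ranks the same value on every array. Closeness at the top ranks is thus partly set by the method. Myh7, the beta myosin heavy chain, stood at 13.04 and 12.88 in sham and 13.04 and 13.22 in late estradiol, a difference of 0.17 ± 0.12. That difference became 0.59 with median scaling. Myh6, the alpha chain, stood at 12.73 and 12.73 against 12.74 and 12.41, a difference of -0.15 ± 0.11 that became 0.20 with median scaling. The other probe set of Myh6 gave -1.93 ± 0.31, with -2.62 and -1.24 in the pairs and a limma adjusted p of 0.271, so the probe sets of this gene share a sign and not a size. Across 22 tested sarcomere genes 12 lay higher and 10 lower, with a median of 0.06 (0.16 and -0.04 in the pairs), which was 0.47 relative to all probe sets with median scaling. The largest differences of the list were those of Myl4, 1.03 ± 0.45, and of Tnni1, the troponin I of fetal heart and slow muscle, 0.96 ± 0.42. Tnni1 stood at 4.80 and 4.67 in sham and 6.24 and 5.14 in late estradiol, without overlap and without passing after adjustment. Myl2, the ventricular light chain, stood at 12.64 and 12.59 against 12.93 and 12.68, without overlap. Its difference of 0.20 became 0.54 with median scaling.

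Calcium cycling genes were divided 12 to 11 with a median of 0.02. Atp2a2, which encodes the pump that returns calcium to the sarcoplasmic reticulum, was at 12.95 and 13.04 in sham and 12.95 and 12.95 in late estradiol, a difference of -0.05 ± 0.11 that became 0.35 with median scaling. Ryr2, the calcium release channel, was at 11.87 and 11.68 against 11.59 and 11.37, a difference of -0.30 ± 0.13 that was even between pairs, though its 1 other probe set had the opposite sign. S100a1, a calcium sensor that modulates both, was at 7.91 and 7.56 against 8.21 and 8.14.

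Nppb, the B-type natriuretic peptide gene and a marker of wall stress, was at 11.00 and 11.46 in sham and 11.41 and 11.49 in late estradiol, a difference of 0.23 ± 0.15. Rcan1, a regulator and target of calcineurin, was at 9.55 and 9.90 against 8.83 and 9.47. The 16 tested genes of stress and fetal type were divided 9 to 7.

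Intercalated disc genes, whose products join neighbouring cardiomyocytes, lay higher in 13 of 17, with a median of 0.16, and the replicate 2 pair had 9 higher and 8 lower. The medians were 0.28 and 0.06 in the pairs. Cdh2, the N-cadherin of the adherens junction, stood at 9.01 and 8.93 in sham and 9.55 and 9.23 in late estradiol. Ctnnb1, beta-catenin, stood at 11.10 and 10.54 against 11.34 and 11.26, and Vcl, vinculin, at 9.92 and 9.47 against 10.32 and 9.81. Among the 4 lower genes of the list, Jup, plakoglobin of the desmosome, stood at 9.01 and 8.74 against 8.51 and 8.41, and Dsp, desmoplakin of the desmosome, at 11.81 and 11.70 against 11.56 and 11.29. Cdh2, Ctnnb1 and Vcl each had other probe sets of the opposite sign.

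Ion channel genes lay lower in 12 of 18, 7 of them without overlap (38.9%, beside 16.1% of all genes), with a median of -0.15. The medians were -0.28 and -0.02 in the pairs, and the replicate 2 pair was divided 9 to 9. Atp1b1, the beta subunit of the sodium pump, stood at 9.05 and 9.63 in sham against 8.77 and 8.92 in late estradiol. Adrenergic and muscarinic genes lay lower in 12 of 17 with a median of -0.25, which was -0.49 in the replicate 1 pair and -0.02 in the replicate 2 pair. Grk5, a kinase that desensitizes adrenergic receptors, stood at 5.28 and 5.74 against 2.41 and 4.90, and Chrm2, the muscarinic receptor of the heart, at 5.79 and 4.94 against 4.08 and 4.36.

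Most genes of substrate use lay a little below sham. Of 18 tested TCA cycle genes 17 lay lower, with a median of -0.18 and -0.23 and -0.11 in the pairs. In 10 of the 18, or 55.6%, the late estradiol arrays lay lower without overlap, and in 1 they lay higher without overlap. These genes are bright, and among the 3517 genes of the brightest of the 4 signal groups 54.7% lay lower and 18.5% lay lower without overlap.

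Idh3a, a subunit of isocitrate dehydrogenase, stood at 10.03 and 9.61 in sham and 9.20 and 9.46 in late estradiol, a difference of -0.49 ± 0.18. Ogdh, of the oxoglutarate dehydrogenase complex, stood at 11.40 and 11.19 against 10.85 and 11.09. Cs, citrate synthase, stood at 11.53 and 11.35 against 11.17 and 11.16, a difference of -0.28 ± 0.14, with 1 of 3 other probe sets of the opposite sign. Each had both late pools below both sham pools, and none passed the limma test after adjustment.

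Fatty acid genes lay lower in 23 of 27 with a median of -0.15, but the median was -0.38 in the replicate 1 pair and -0.01 in the replicate 2 pair. Acadm, the medium-chain acyl-CoA dehydrogenase, stood at 12.29 and 12.15 in sham and 11.69 and 11.98 in late estradiol. Cpt2, which completes the carnitine shuttle, stood at 9.83 and 9.11 against 8.79 and 9.01, and Hadh, of beta oxidation, at 11.25 and 11.06 against 10.18 and 11.03. The replicate 2 pair of Hadh was thus nearly level.

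Glycolysis and glucose genes lay lower in 19 of 26 with a median of -0.16, but the medians were -0.22 and -0.0089 in the pairs and the replicate 2 pair was divided 13 to 13. Leaving out 1 array at a time gave medians of -0.33 to 0.0031. Ldha, the lactate dehydrogenase A chain, stood at 11.66 and 11.63 in sham and 11.11 and 11.19 in late estradiol, a difference of -0.50 ± 0.12. Eno3, the muscle enolase, went the other way, at 10.44 and 10.27 against 11.01 and 10.84, a difference of 0.57 ± 0.13, while Eno1, the common enolase, stood at 11.36 and 11.26 against 11.04 and 10.88. Gys1, glycogen synthase of muscle, stood at 8.16 and 8.23 against 7.04 and 7.90.

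The respiratory chain lists had smaller medians than the TCA cycle, fatty acid and glycolysis lists. Complex I genes lay lower in 24 of 34 with a median of -0.05 (-0.04 and -0.09 in the pairs), and genes of complexes II to V in 24 of 37 with a median of -0.06 (-0.09 and -0.03). Relative to the shift of all probe sets, median scaling turned these medians to 0.05 and 0.30, so their direction depends on the scaling. Cox6a1, a cytochrome oxidase subunit, stood at 10.78 and 10.71 in sham and 10.22 and 10.38 in late estradiol, and Cyc1, cytochrome c1, at 11.86 and 11.88 against 11.62 and 11.68. Cox5a, another oxidase subunit, lay higher without overlap, at 6.33 and 6.37 against 7.63 and 7.03. It was the only gene of the complexes II to V list with a 1.5-fold difference in both pairs. Among regulators of these genes, Ppargc1a, the coactivator PGC-1 alpha, stood at 8.16 and 8.25 against 8.88 and 8.52, a difference of 0.50 ± 0.22, with its 1 other probe set of opposite sign. Esrra, the estrogen-related receptor that works with it, stood at 8.01 and 8.48 against 7.40 and 8.07, with overlap, and Esrrb at 6.87 and 6.31 against 5.88 and 5.87.

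Antioxidant genes lay lower in 23 of 31, with a median of -0.23 that was -0.33 and -0.04 in the pairs. In 10, or 32.3%, the arrays did not overlap, beside 16.1% of all genes and 18.5% of genes in the brightest signal group. A pair of peroxiredoxins were even between replicates: Prdx2 stood at 11.11 and 11.06 in sham and 10.62 and 10.76 in late estradiol, and Prdx3, the mitochondrial form, at 10.60 and 10.65 against 10.27 and 10.31. Mt2A, a metallothionein, lay in the opposite direction by 0.68 ± 0.22 with overlap. Of chaperones 15 of 20 lay lower with a median of -0.13 (-0.16 and -0.07 in the pairs). Bag3, which works with Hsp70 in muscle, stood at 9.63 and 9.80 against 9.32 and 9.19, and Dnaja1, an Hsp40, at 9.17 and 8.99 against 8.68 and 8.55.

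Cytosolic ribosomal protein genes were the list with the most members above sham, 24 of 28 tested of 60 listed, with a median of 0.10 that was alike in the pairs (0.14 and 0.11). In 9 of them, or 32.1%, the arrays did not overlap, beside 14.3% of all genes and 15.1% of genes in the brightest signal group. Rpl21 stood at 10.32 and 10.35 in sham and 10.85 and 11.05 in late estradiol, a difference of 0.62 ± 0.13. Rps28 stood at 11.21 and 11.19 against 11.66 and 11.70, and Rpl35 at 11.65 and 11.66 against 12.00 and 11.92. All 3 encode ribosome subunits, none passed after adjustment with limma, and near-identical processed copies of such genes in the genome make the probe sets uncertain for 1 copy. Mitochondrial ribosomal genes lay lower in 28 of 39 with a median of -0.08 (-0.16 and 0.01 in the pairs), and proteasome genes lower in 19 of 30 with a median of -0.07 (-0.14 and 0.03).

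**Figure D5:**
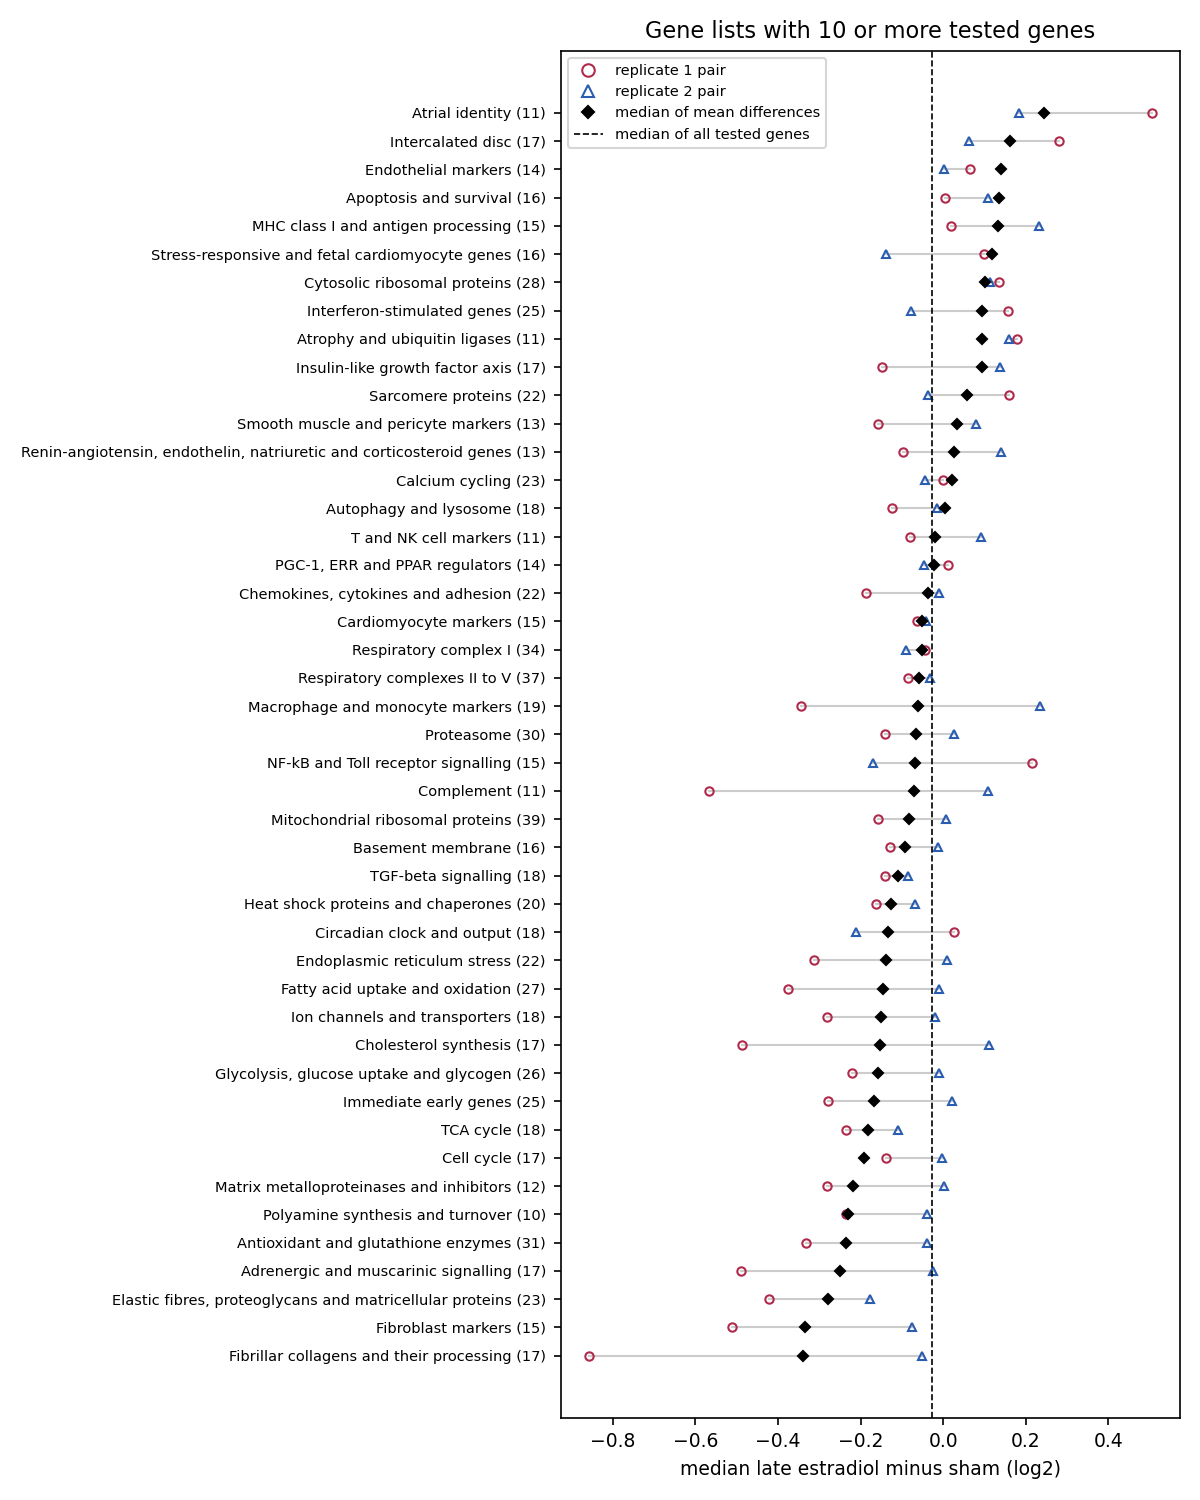
Median difference late estradiol minus sham (log2, horizontal axis) of each gene list with at least 10 tested genes, number tested in brackets. Circles are the replicate 1 pair, triangles the replicate 2 pair and diamonds the median of mean differences; the fibrillar collagens are the lowest at -0.34, with circle and triangle at -0.86 and -0.05, and the dashed line at -0.03 is the median of all genes.

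Immune genes showed no shared direction. Class II antigen genes lay lower in 5 of 8, with Cd74, the invariant chain, differing by -0.35 ± 0.14 without overlap, while class I genes lay higher in 9 of 15 and interferon-stimulated genes in 17 of 25 with medians of 0.13 and 0.09. The interferon genes had medians of 0.16 and -0.08 in the pairs, with 11 higher and 14 lower in the replicate 2 pair. Of 15 tested NF-kB and Toll receptor genes 5 lay higher and 10 lower, with medians of 0.21 and -0.17 in the pairs. Nfkbia, the inhibitor that NF-kB induces, stood at 7.96 and 7.87 against 8.80 and 8.40, a difference of 0.68 ± 0.19. Relb, an NF-kB subunit, lay lower without overlap, at 5.80 and 5.70 against 3.85 and 5.34. Pla2g2a, a secreted phospholipase, stood at 9.46 and 9.22 against 9.85 and 9.86, below its early estradiol pools at 11.14 and 10.21.

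Of clock genes, which vary with the hour of tissue collection, 13 of 18 lay lower with a median of -0.13, but the medians were 0.03 and -0.21 in the pairs and the replicate 1 pair was divided 9 to 9. Leaving out 1 array at a time gave medians of -0.25 to -0.0020. Cry1, a repressor of the clock, stood at 6.33 and 6.44 in sham and 5.07 and 5.71 in late estradiol, and Npas2, an activator, at 4.61 and 4.91 against 5.38 and 6.08. That hour was not stated in any source used here. Immediate early genes, induced quickly by handling and stress, were divided 10 to 15 with pair medians of -0.28 and 0.02, with Jun at 7.99 and 7.75 against 8.61 and 8.07 and Ier3 at 7.31 and 7.46 against 6.47 and 7.11.

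The estrogen receptors gave little to compare. The probe sets for Esr1, Esr2 and the progesterone receptor Pgr, a classical estradiol target, had mean log2 signals of 1.42, 2.21 and 3.26, below the 3.69 needed for testing. Gper1 was tested and stood at 5.10 and 3.24 in sham and 4.36 and 2.43 in late estradiol, a difference of -0.77 ± 0.80, smaller in size than its standard error. Of 19 listed receptors and coregulators 8 were tested, and Ep300, a coactivator of the nuclear receptors, stood at 7.20 and 7.30 against 7.85 and 7.44.

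Growth and protein turnover genes were mixed. Igf1r, the receptor for insulin-like growth factor 1, stood at 6.35 and 6.24 in sham and 7.20 and 6.85 in late estradiol, while Irs2, an adaptor downstream of it, stood at 6.29 and 6.05 against 5.38 and 5.52. Ddit4, an inhibitor of mTORC1, stood at 7.46 and 7.30 against 7.91 and 8.14, and 8 of 11 tested atrophy genes lay higher with a median of 0.09. Sqstm1, the autophagy receptor p62, stood at 10.18 and 9.88 against 9.50 and 9.54, with 1 of 2 other probe sets of the opposite sign, and Ctsd, the lysosomal protease cathepsin D, overlapped between groups at 8.92 and 9.78 against 8.37 and 9.18.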

How the data were processed

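RNA pooled from 3 hearts was hybridised to 1 Affymetrix rat array per pool, 2 pools in each of 4 groups. The deposited values are linear intensities that the authors computed with MAS5, per the submitters' processing notes; its scaling target is not known. The intensities of 31099 probe sets were taken to log2 with no value added, quantile normalized over all 8 arrays, and freed of 57 control probe sets. Probe sets under the 40th percentile of mean log2 signal (3.69) were left out. For the remaining 18625, limma (version 3.58.1, under R 4.3.3) fitted group means, the replicate number as a block and an intensity trend, and p-values were adjusted by Benjamini-Hochberg. The numbers were taken to pair the pools because deviations of same-numbered arrays correlated in all 6 pairs of groups (r 0.277 to 0.331).

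Of the probe sets that are not controls, 20826 carried 1 gene symbol, 436 several and 9780 none in the platform annotation, and 20758 of those with 1 symbol matched RefSeq (GRCr8), used for names. Each gene is its brightest tested probe set. Named genes had at least the median signal, no overlap and a 1.5-fold difference in both pairs, the 15 of smallest p in each direction, with fixed genes and up to 5 members of smallest p from each of 55 lists. Members and lists were chosen with earlier results of these data known. The fit was tested on simulated data. The number of arrays limits the precision. Scaling, filter, added value, block, trend, arrays fitted and left-out arrays were varied.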

Additional observations from a re-analysis of the deposited data

How the results depend on the processing

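No probe set passed with median scaling, without a filter, with a 60th percentile filter, with 32 added before log2, without the replicate block or without the intensity trend. Without between-array scaling 16 passed, all lower, and in the fit of only the 4 arrays with the replicate block 118 passed. Without the replicate block 627 probe sets had an unadjusted p under 0.05, against 1339 with the pairing, and with median scaling 2739 did. Leaving out 1 array at a time gave 0 to 144 calls and 431 to 2640 probe sets under the unadjusted threshold. The highest count of calls came without late estradiol replicate 2, which left replicate 1 as the only late array. The cause was not tested.

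Probe sets whose arrays did not overlap numbered 2684 higher and 3014 lower. Without scaling 217 were higher, with median scaling 1255, and without the filter 4526 were higher and 4695 lower. With 1.5-fold in both pairs there were 406 higher and 410 lower. These counts were 76 and 689 without scaling, 1527 and 1420 without the filter, 140 and 126 with the 60th percentile filter, and 57 and 37 with 32 added; median scaling gave 661 lower. With 1 array left out, an alternative chosen after seeing the data, the counts without overlap were 5490 to 6577 higher and 5716 to 7432 lower, and with 1.5-fold 1047 to 2846 and 1051 to 3690, since fewer arrays have to agree. The SD of the differences, 0.57, was 0.87 without the filter, 0.27 with 32 added and 0.56 to 0.87 with 1 array left out.

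The median difference was -0.62 without scaling and -0.23 with median scaling. Without scaling, where the whole distribution lies lower, the differences were -0.022 for Srsf2, -0.034 for Lrrc27, -0.32 for Nppb, -0.26 for Ppargc1a, -0.25 for Adamts1, -0.34 for Cdh2, -0.088 for Ctnnb1, -0.060 for Ddit4, -0.28 for Dkk3, -0.12 for Eno3, -0.33 for Ep300, -0.28 for Jun, -0.060 for Mt2A, -0.070 for Nfkbia, -0.25 for Pla2g2a, -0.070 for Rpl21, -0.063 for Rpl35, -0.11 for Pparg, -0.29 for S100a1, -0.38 for Timp3, -0.36 for Vcl and -0.20 for Vwf. With median scaling Atp2a2 and Myh6 went the other way, to 0.35 and 0.20; the cause was not tested. With 1 array left out the sign turned for Eln (-5.07 to 0.12), Myh7 (-0.0055 to 0.34), Atp2a2 (-0.12 to 0.034), Nppb (-0.0097 to 0.46) and Timp3 (-0.0021 to 0.70). Signal limits the dim probe sets, whose differences have the widest intervals.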

Other observations

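Immt, which shapes the inner mitochondrial membrane, had a probe set with the same adjusted p as Bex1 (0.188 with limma) and a difference of -3.64 ± 0.50. It is dim, and the brightest probe set of the gene gave -0.28 ± 0.14, so its probe sets do not give 1 value for the gene. Mast cell genes, of which 3 of 9 listed were bright enough to test, included Tpsb2, a tryptase, at 3.83 and 4.88 in sham and 1.17 and 3.59 in late estradiol, and Cpa3, a carboxypeptidase, at 3.84 and 4.15 against 0.97 and 3.73. The third, Tpsab1, another tryptase, lay in the other direction, at 3.03 and 4.46 against 4.15 and 4.57. Their signals lie near the lower limit of testing, and none of the 3 passed the limma test after adjustment.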
